A study of Drosophila melanogaster with 4 samples.

Results

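A set of 76 transcripts was measurable in both genotypes of this series but carried a signal at least 8-fold lower, on average, in grainy head mutant embryos than in wild-type embryos. The candidates were the 14755 array targets named by a FlyBase transcript accession, of which 12505 had a probe well above background on all 4 arrays, so the 76 transcripts made up 0.608% of the measured ones. They were chosen by their difference between the genotypes: the lower wild-type array had to exceed the higher grhIM array by at least 2 on the log2 scale (4-fold), and the wild-type mean had to exceed the grhIM mean by at least 3 (8-fold). The direction and the least size of every difference given below were therefore set by the choice, and the differences of the 76 transcripts are descriptions, not tests.

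Pools of whole Drosophila melanogaster embryos, grown at 25°C to the end of stage 16 or the start of stage 17, gave total RNA that was hybridised to Agilent arrays with 43603 gene spots in 1 colour (Cy3). Mutant embryos were homozygous for grhIM on a chromosome that also carried cn, bw and sp (+; cn, grhIM, bw, sp; +); wild-type embryos were y; cn, bw, sp; +, so both genotypes shared the eye-colour and body markers and only the wild-type strain carried y. The grhIM allele places a stop codon in the part of grh that encodes the DNA-binding domain, and homozygotes were picked by the absence of a fluorescent balancer chromosome. Each genotype had 2 replicates, each a pool of about 500 embryos. The study states that embryos were collected in duplicate, but neither it nor the labels say whether the pools came from separate crosses. The spread between replicates may therefore be partly technical.

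Grainy head (GRH) is a transcription factor of the embryonic epidermis that binds DNA near many genes of the cuticle, the chitin-containing barrier that covers the insect body. Late in embryogenesis the epidermis secretes this cuticle and hardens its head skeleton, and mutants that lack GRH die with a fragile cuticle and a grainy head skeleton. Because whole embryos were used, fewer cells of a type and less RNA per cell cannot be told apart. Mutant and wild-type embryos also came from separate strains, so other differences between the strains cannot be told apart from the loss of GRH.

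Between 75.9% and 83.1% of probes per array were well above background, no gene spot was saturated, and the arrays shared 1 slide, at a different position each. Probes are identified in the scanner files only through accessions, without gene symbols. Through a table of RefSeq genes, 33 FlyBase transcripts of the array could be paired with a gene, of which 31 were measured and 1 was among the 76 transcripts; the others are given by accession, and no role can be stated for them. The level of a transcript below is the log2 of its probe's processed signal minus the median of that array over all gene probes, so 0 is the median probe. Where a transcript had several probes, the brightest stood for it. Levels of different probes do not rank transcripts by abundance, since probes differ in how well they hybridise.

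Most of the 76 transcripts lay on opposite sides of the array median in the 2 genotypes. On the grhIM arrays their levels ran from -4.70 to 4.24 (median -1.85) in replicate 1 and from -4.51 to 4.68 (median -1.81) in replicate 2. On the wild-type arrays they ran from -1.45 to 8.06 (median 3.10) in replicate 1 and from -1.38 to 7.89 (median 2.92) in replicate 2. Levels were below the median on both grhIM arrays and above it on both wild-type arrays for 40 transcripts, against 178 among all 12505 measured ones. The choice of transcripts favoured such a crossing, so nothing is read from these counts. A further 24 transcripts stayed above the median on both grhIM arrays, 5 were below it on all 4 arrays, and 7 lay on both sides of it within a genotype.

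**Figure D1:**
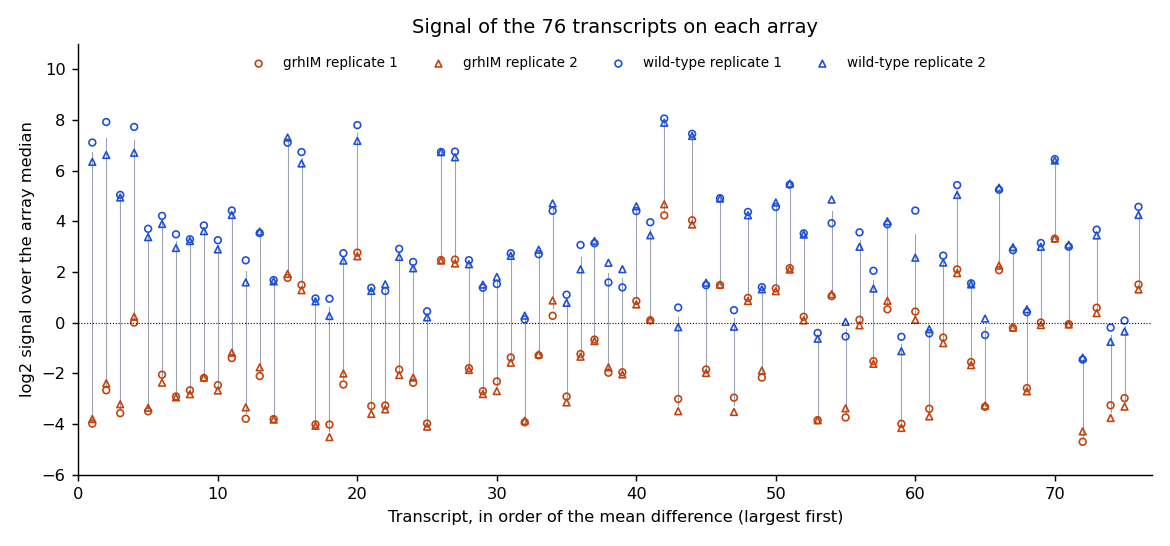
Level of each of the 76 transcripts (log2 processed signal over the array median, vertical axis) on the 2 grhIM arrays (orange) and the 2 wild-type arrays (blue), with transcripts in order of the mean difference along the horizontal axis; grey lines join the means of the genotypes. The grhIM points run from -4.70 to 4.68 and the wild-type points from -1.45 to 8.06, and within each transcript the genotypes do not overlap, which the choice of transcripts required.

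The mean difference, grhIM minus wild-type, had a median of -3.80 over the 76 transcripts, a 13.9-fold lower signal in grhIM, while its median over all measured transcripts was 0.03 with an SD of 0.72. It lay between -3 and -4 for 43 transcripts, between -4 and -5 for 17, between -5 and -6 for 8, and was larger than that for the remaining 8. The folds ran from 8.01 to 1572. By the same thresholds turned round, 45 measured transcripts were higher in grhIM. In a limma fit over 12997 FlyBase transcripts well above background on both arrays of at least 1 genotype, 5.65% were lower in grhIM at a Benjamini-Hochberg adjusted p under 0.01, and 75 of the 76 were among these. The genotypes did not overlap, with grhIM lower, for 29.6% of measured transcripts and for all 76, as the choice required. Both counts rest on the values that chose the transcripts, so nothing is read from them.

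**Figure D2:**
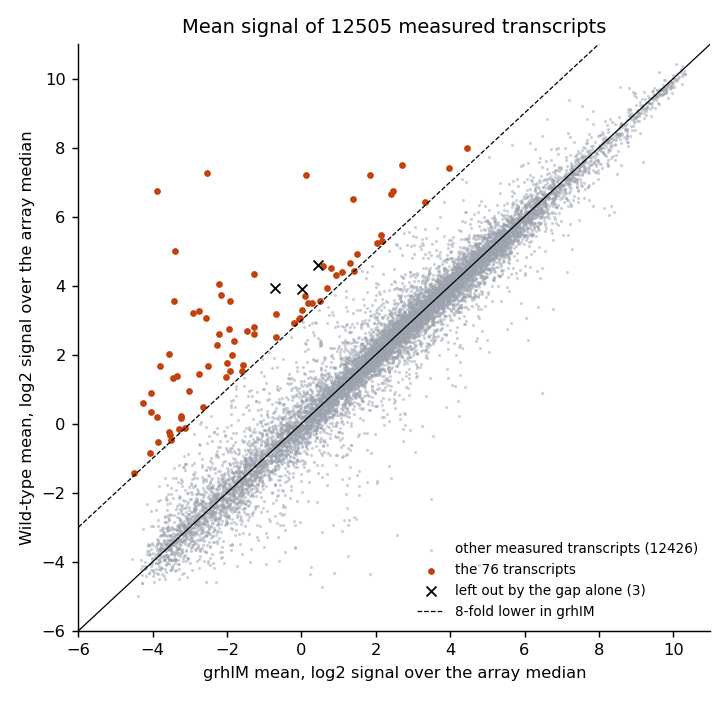
Mean level in grhIM (horizontal) against mean level in wild-type (vertical) for the 12505 transcripts measured on all 4 arrays, in log2 signal over the array median. The 76 transcripts (orange) lie above the dashed line of an 8-fold lower signal in grhIM, the other 12426 (grey) lie below it, and the 3 crosses mark transcripts that only the requirement on single arrays left out.

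The largest difference was that of FBtr0071980, whose level was -3.98 and -3.80 on the grhIM arrays, against 7.11 and 6.35 on the wild-type arrays. In processed signal these were 22.6 and 27.7 units in grhIM embryos and 49372 and 32923 units in wild-type embryos, a 1572-fold difference of the means on the log scale. The grhIM mean lay only 1.07 above the dimmest measurable level. The difference was -9.00 in the deposited table and -7.90 after normexp background correction with an offset of 50 units added, against -10.62 here. Both wild-type arrays placed this probe far above the array median and both grhIM arrays placed it near the lower end of the measurable range.

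The only transcript with a gene name was FBtr0081102, and its name rests on synonyms in the RefSeq table alone, which give this transcript for CG17325 with the suffix mORF and for CG42305 with the suffix uORF, read here as its main and upstream open reading frames. Its level was -2.66 and -2.39 in grhIM and 7.92 and 6.62 in wild-type, a mean difference of -9.80 (890-fold). The wild-type replicates differed by 1.30, the grhIM replicates by 0.27, and the lower wild-type array still lay 9.01 above the higher grhIM array. The difference was -8.88 in the deposited table, -7.85 after normexp, -9.15 when wild-type replicate 1 was left out and -10.45 when replicate 2 was.

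FBtr0088744 had levels of -3.57 and -3.22 in grhIM and 5.05 and 4.94 in wild-type, a difference of -8.39. FBtr0080656 had 0.01 and 0.24 in grhIM and 7.73 and 6.71 in wild-type, a difference of -7.09. FBtr0072334 was at -3.49 and -3.36 in grhIM and at 3.71 and 3.38 in wild-type, a difference of -6.97. In these transcripts the replicates of a genotype lay within 1.02 of each other, a small part of the distance between the genotypes.

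The next transcripts in order were between 50.0-fold and 76.99-fold lower in grhIM, with levels that fell into a narrow band in each genotype. FBtr0078226 had -2.05 and -2.37 in grhIM and 4.22 and 3.90 in wild-type (difference -6.27), and FBtr0301809 had -2.91 and -2.94 in grhIM and 3.49 and 2.95 in wild-type (-6.15). FBtr0080934 had -2.67 and -2.82 in grhIM and 3.29 and 3.22 in wild-type (-6.002). All of these were below the array median on both grhIM arrays and well above it on both wild-type arrays. FBtr0078221 had -2.18 and -2.16 in grhIM and 3.84 and 3.61 in wild-type (-5.90), and FBtr0074394 had -2.46 and -2.67 in grhIM and 3.26 and 2.89 in wild-type (-5.64).

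Some transcripts kept a bright signal in the mutants. The probe of FBtr0076191 was the brightest of the 76 in both genotypes, with 4.24 and 4.68 in grhIM and 8.06 and 7.89 in wild-type, a difference of -3.52 or 11.46-fold. FBtr0113694 had 4.04 and 3.88 in grhIM and 7.45 and 7.37 in wild-type (-3.45), and FBtr0073570 had 3.31 and 3.32 in grhIM and 6.46 and 6.40 in wild-type (-3.11). These probes were above the array median on every array, the grhIM arrays included. FBtr0085500, also among the brightest probes in wild-type, had 2.77 and 2.62 in grhIM and 7.80 and 7.18 in wild-type (-4.79).

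How far a grhIM level can be read depends on its distance from the dimmest signal that still counts as well above background, here the lowest level among such probes on each array, which was -4.72 and -5.21 in grhIM, against -5.04 and -5.82 in wild-type. The grhIM mean lay within 1 of that level for 5 of the 76 transcripts and at least 3 above it for 41, with a median distance of 3.07. The nearest was FBtr0085958, at -4.70 and -4.29 in grhIM and -1.45 and -1.38 in wild-type, only 0.47 above it. This dimmest level was not a sharp limit, since a spot of FBtr0070504 at -4.11 on grhIM replicate 1 was not well above background. The count of 5 may therefore leave out transcripts limited by background. When every spot of a probe, and not only at least 50% of them, had to be well above background on every array, 70 of the 76 transcripts remained. Each of the 6 that dropped out had a spot that was not well above background on a grhIM array, and none had such a spot on a wild-type array.

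Of the 76 probes, 47 had more than 1 spot on each array, 45 of them 2 spots and the other 2 probes 10 spots. In all 47, every wild-type spot was brighter than every grhIM spot, by 2.06 to the next at the least. The range between spots of a probe on an array had a median of 0.10 in grhIM and 0.07 in wild-type, but some probes ranged more widely. The largest range was 2.04 in grhIM and 1.503 in wild-type, both at FBtr0076922. Its spots read 0.96 and -1.08 on grhIM replicate 1, and 5.27 and 3.77 on wild-type replicate 2. The spots of FBtr0085958 read -4.04 and -5.94 on grhIM replicate 1. No spot of the 76 transcripts was marked by the scanner software as non-uniform or as an outlier.

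The median difference between replicates was larger for the 76 transcripts than for all measured ones in both genotypes, and large differences were more frequent in wild-type. The absolute difference between the grhIM replicates had a median of 0.16, against 0.09 over all 12505 transcripts, and that between the wild-type replicates a median of 0.23, against 0.18. It passed 0.5 in grhIM for 2 of the 76 transcripts, against 2.33% of all measured ones, and in wild-type for 21, against 8.79%. It passed 1 in grhIM for 0 of the 76, against 0.416% of all measured, and in wild-type for 3, against 0.928%. Wild-type replicate 1 was above replicate 2 for 51 of the 76 transcripts, against 46.1% of all measured transcripts, and grhIM replicate 1 was above replicate 2 for 48, against 55.9%. What set the wild-type replicates apart was not tested.

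**Figure D3:**
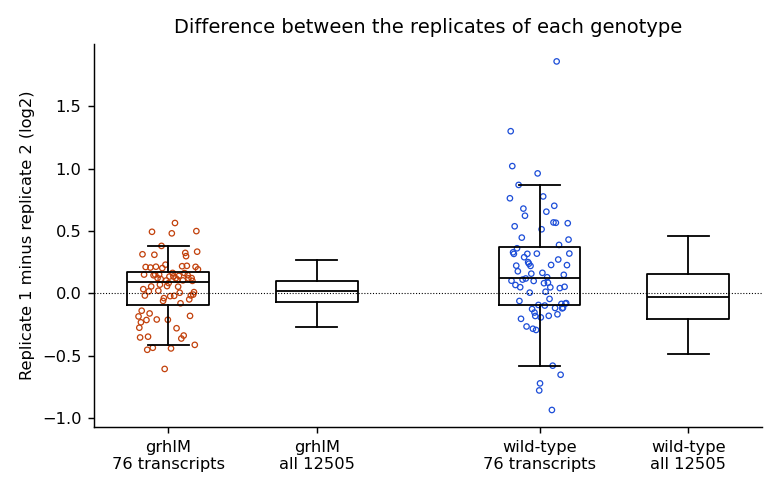
Replicate 1 minus replicate 2 in log2 units, for grhIM (left) and wild-type (right), over the 76 transcripts (points and box) and over all 12505 measured transcripts (box alone); boxes show the quartiles and the median, whiskers the 5th and 95th percentiles. The medians for the 76 transcripts are 0.09 in grhIM and 0.13 in wild-type, against 0.02 and -0.03 over all measured transcripts.

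The widest spread was that of FBtr0299964, with 0.44 and 0.12 in grhIM and 4.43 and 2.57 in wild-type. Its difference of -3.22 was 1.73 times the gap between its wild-type replicates, the smallest such ratio among the 76, and it was the transcript that missed the limma threshold (adjusted p = 0.0235). Without wild-type replicate 1 its difference was -2.29, short of the 8-fold limit, and without wild-type replicate 2 it was -4.15. The wild-type replicates also differed by more than 1 for FBtr0081102 and FBtr0080656, described above, and in all 3 cases replicate 1 was the higher.

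Transcripts close to the thresholds were as follows. Just inside the 8-fold limit lay FBtr0080213 (1.51 and 1.31 in grhIM, 4.57 and 4.25 in wild-type, -3.003), FBtr0073639 (-2.97 and -3.31 in grhIM, 0.08 and -0.35 in wild-type, -3.01) and FBtr0073468 (-3.26 and -3.76 in grhIM, -0.19 and -0.75 in wild-type, -3.04). Just outside it lay FBtr0080237 (1.53 and 1.56 in grhIM, 4.30 and 4.75 in wild-type, -2.98), FBtr0086644 (-3.69 and -3.62 in grhIM, -0.54 and -0.84 in wild-type, -2.97) and FBtr0086076 (-0.71 and -1.02 in grhIM, 2.17 and 1.99 in wild-type, -2.95). Across this limit the 6 differences lay closer to each other than the wild-type replicates of any of these transcripts did. The least distance between single arrays was 2.13 for FBtr0299964, followed by 2.504 for FBtr0073468 and 2.63 for FBtr0073639.

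Only 3 measured transcripts passed the limit on the means and failed that on single arrays, and each rested on 1 bright spot of wild-type replicate 1. FBtr0077569 was at -0.73 and -0.72 in grhIM and at 7.68 and 0.20 in wild-type, FBtr0114543 at 0.45 and 0.45 in grhIM and at 8.87 and 0.30 in wild-type, and FBtr0071228 at 0.11 and -0.07 in grhIM and at 7.97 and -0.17 in wild-type. In each, the scanner software had marked that spot on wild-type replicate 1, at 8.67, 8.87 and 8.97. The other spot of FBtr0077569 on the same array was at -0.04 and that of FBtr0071228 at -0.52, while FBtr0114543 had a single spot.

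For 26 of the 76 transcripts the array held an additional probe, whose mean level over the 4 arrays was below that of the brightest. Its difference between the genotypes did not enter the choice, but its level did in the step that took the brightest probe, and it was read from the same RNA and arrays, so it repeats the probe and not the embryos. Of the 26 additional probes, 14 passed the background limit on all 4 arrays, and their differences ran from -4.83 to 0.17 with a median of -2.98. In 11 of these 14 the genotypes did not overlap and grhIM was lower, against 24.1% of the 4465 such additional probes of all FlyBase transcripts, and 7 met both limits of the choice, against 0.246%. The difference of 10 lay within 1 of the brightest probe's difference.

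Examples with a close match were FBtr0290111, where the additional probe gave -2.18 and -2.28 in grhIM and 2.65 and 2.32 in wild-type, a difference of -4.72 beside -4.82 at the brightest probe, and FBtr0080201, with -2.17 and -2.38 in grhIM and 2.63 and 2.48 in wild-type, -4.83 beside -4.71. For FBtr0073570 it was -3.14 beside -3.11. Here the brightest and the additional probe gave nearly the same difference between the genotypes.

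In 3 transcripts the additional probe was measured on all arrays and the genotypes overlapped there. At the additional probe of FBtr0072292 the levels were -1.80 and -1.80 in grhIM and -1.99 and -1.67 in wild-type (difference 0.03), whereas its brightest probe gave 2.47 and 2.45 in grhIM and 6.74 and 6.73 in wild-type (-4.27). For FBtr0078200 the additional probe gave 0.89 and 0.90 in grhIM and 0.80 and 1.08 in wild-type (-0.04), and the brightest 0.98 and 0.86 in grhIM and 4.37 and 4.24 in wild-type (-3.39). For FBtr0070504 the additional probe gave -2.51 and -3.02 in grhIM and -2.77 and -3.10 in wild-type (0.17), and the brightest -3.99 and -4.15 in grhIM and -0.55 and -1.12 in wild-type (-3.23). For these transcripts the loss in grhIM is a measurement of 1 probe of the accession; whether the probes match different parts or forms of the transcript was not tested.

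A further 6 additional probes were well above background on both wild-type arrays and on neither grhIM array. Their folds were taken with each grhIM array at the dimmest level well above background or at the probe's own level if higher. A brighter spot can still fail the background limit, as at -4.11 on grhIM replicate 1 for FBtr0070504, so these folds are not strict bounds. Taken so, the signal was 286-fold lower in grhIM for FBtr0080656, 129-fold lower for FBtr0086462 and 32.4-fold lower for FBtr0088744. For the other 3 it was 6.22-fold lower for FBtr0081102, 5.19-fold for FBtr0111127 and 2.15-fold for FBtr0299796. At FBtr0080656 the brightest probe thus kept a measured signal in grhIM while the additional probe, at -5.59 and -5.35, did not. Another 4 additional probes were well above background on 1 of the 2 grhIM arrays, among them those of FBtr0080934 (-4.70 and -4.58 in grhIM, 4.04 and 3.97 in wild-type) and FBtr0072334 (-4.01 and -3.62 in grhIM, 3.69 and 3.30 in wild-type). The last 2, of FBtr0085958 and FBtr0073639, were above background on no array.

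**Figure D4:**
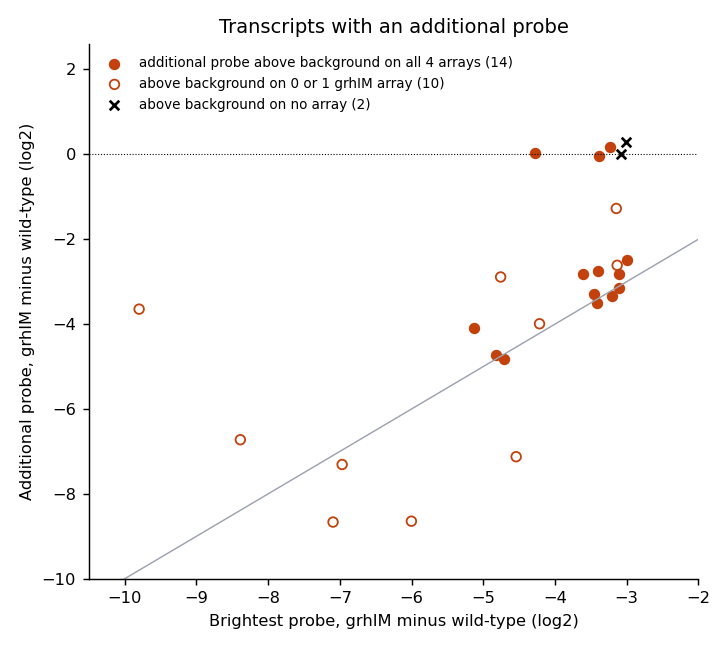
Difference between the genotypes (grhIM minus wild-type, log2) at the brightest probe (horizontal) and at the additional probe (vertical) for 26 transcripts; the grey line marks equal differences. Filled points (14) were well above background on all arrays, open points (10) on both wild-type arrays and on 0 or 1 grhIM array, so that their measured difference is not a fold, and crosses (2) on no array; 3 filled points lie near 0.

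Of the 76 transcripts, 15 (19.7%) had another of the 76 within 20 accession numbers, against 10.5% of the other measured transcripts that had such a neighbour among the 76. Close numbers can belong to transcripts of the same gene or of neighbouring genes, which the files do not tell apart, so the 76 accessions may stand for fewer genes. FBtr0078221 and FBtr0078226, described above, differed by -5.90 and -6.27. FBtr0299961 (-1.24 and -1.34 in grhIM, 3.07 and 2.11 in wild-type, -3.88) lay next to FBtr0299964, and in both wild-type replicate 1 was above replicate 2. By their probe means, FBtr0076922 (0.27 and 0.88 in grhIM, 4.42 and 4.71 in wild-type, -3.99) and FBtr0076908 (0.53 and 0.87 in grhIM, 3.89 and 4.003 in wild-type, -3.25) were both higher in replicate 2 in each genotype. At the dimmer spot of FBtr0076922 the wild-type replicates read 3.774 and 3.771, so replicate 2 was not higher there. FBtr0113694 and FBtr0113695 differed by -3.45 and -3.10. The 1306 measured transcripts near the 76 in number that were not among them had a median difference of 0.03, and 29.4% of them were lower in grhIM with no overlap, against 29.6% of all measured transcripts.

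The size of the differences depended on how background was handled. The normexp setting adds an offset of 50 units to every signal, which by itself makes the difference of a dim probe smaller. The 10 largest included 9 that had a value under each treatment, and these ran from -4.88 to -9.00 in the deposited table and from -3.85 to -7.90 after normexp, against -5.64 to -10.62 in processed signal. All 76 probes were in the deposited table of normalised values, where grhIM was lower in each, by -1.35 to -9.00 with a median of -3.28; there 52 were at least 8-fold and 72 at least 4-fold lower. The deposited difference was 0.817 of the processed one (median) for the 50 transcripts below the array median on both grhIM arrays and 0.975 for the 24 above it on both. For FBtr0085958 it was -1.35 beside -3.08, and for FBtr0113694 -3.50 beside -3.45. The raw median signal, from which no background was subtracted, gave a median difference of -3.27, close to that of the deposited table.

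**Figure D5:**
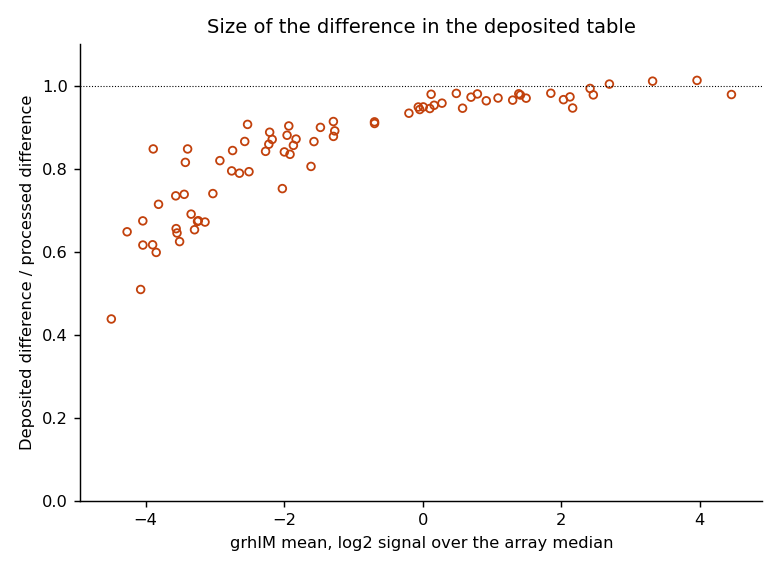
Difference in the deposited table divided by the difference in processed signal (vertical) against the mean grhIM level in log2 signal over the array median (horizontal), for the 76 transcripts; the dotted line marks equal differences. The ratio has a median of 0.975 in the 24 transcripts above the median on both grhIM arrays and of 0.817 in the 50 below it.

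Cuticle genes could be followed only where an accession of another kind had a name. Of 63 cuticle and chitin genes, most of them listed by the study from these same arrays and so not independent evidence of direction, 3 had a named target, none a FlyBase transcript. In a limma fit over all 20358 accessions, 9.21% were called in either direction, with 1055 accessions called lower in grhIM. Of the 3 cuticle genes, 2 were called lower and none was called higher. The third was lower on both grhIM arrays than on either wild-type array but was not called. The other genes of the list, which holds genes the study placed in either direction, were not analysed here, so these counts do not describe the list. Cpr60D, which encodes a cuticular protein, had -3.54 and -3.54 in grhIM and 3.66 and 3.36 in wild-type; its fitted difference was -7.09 ± 0.15 (SE, limma adjusted p = 0.000233), a size passed by only 4 of the 76 transcripts. Obst-B, which encodes a chitin-binding protein of the obstructor family, had 5.33 and 5.42 in grhIM and 7.27 and 7.38 in wild-type (-1.98 ± 0.12, limma adjusted p = 0.00084). Acp65Aa, a cuticle protein gene, had 1.90 and 2.09 in grhIM and 3.21 and 4.09 in wild-type and missed the threshold here (-1.68 ± 0.30, limma adjusted p = 0.0201). The study listed this gene as significantly lower in grhIM from the same arrays. Its false discovery rates were calculated otherwise, and it kept the highest fold change among the probes of a gene.

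Of 30 marker genes of epidermis, muscle, nervous system, fat body, blood cells, gut, trachea and germ line, only grh itself had a named target, so the tissue makeup of the pools was not checked. The grh probe gave 1.13 and 1.31 in grhIM and 0.17 and 0.35 in wild-type, a fitted difference of 0.93 ± 0.13 (SE, limma adjusted p = 0.00961). Since grhIM changes a codon and does not delete the transcript, this level does not check the labels of the arrays. By RT-PCR the study found roughly equal amounts of grh transcript in both genotypes, so the higher signal rests on this probe alone.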

How the data were processed

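RNA of 2 grhIM and 2 wild-type pools was measured, 1 array each. Linear intensity values stand in the deposited scanner files, which the authors obtained from Agilent Feature Extraction 10.7.3.1 and a grid of build dm3. Their processed signal has the background of the array subtracted and is unscaled across arrays. Flags of 0 or 1 in the deposited files are another kind of value and mark spots well above background, saturated or uneven. A deposited table holds the authors' normalised intensity, made by a loess method over all samples, with its background kept as judged from its values.

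Spots of a probe were averaged, log2 was taken, and the array's median over gene probes was subtracted. A probe counted as well above background if at least 50% of its spots were so marked. Differences are grhIM minus wild-type. For calls over all features, cyclic loess (span 0.7, 3 iterations) and limma 3.58.1 (lmFit, eBayes; R 4.3.3) with 1 term for genotype were used, with Benjamini-Hochberg adjustment. The code of the fit was also run on simulated arrays in which every transcript had the same spread. Real transcripts differ in spread, so that run does not test the calls made here. The precision is limited by the number of arrays.

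Transcripts named in the text were the 10 with the largest difference, the 3 brightest per genotype, the 3 with the widest replicates, the 3 just inside and outside each limit, any with a gene name, and those whose probes differed by over 2; others were named as examples after their values were seen. The transcripts and gene lists were chosen with earlier results of these data known. Names came from a RefSeq table (assembly Release 6); its coordinates were not used, since the array grid is of another build, and no sequences were used here.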

Additional observations from a re-analysis of the deposited data

How the results depend on the processing

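Under other scalings (75th percentile, cyclic loess, quantile, none, E1A spike-ins) the count of transcripts lay between 75 and 82 and the median difference between -3.79 and -3.93; E1A scaling lowered every difference by 0.13. The median was -3.29 in the deposited table and -2.66 after normexp, both over 75 of the 76, since the other probe of FBtr0080934 was then the brightest and was not measured on every array, and -3.27 from raw median signals; these settings add back or keep background; normexp left 23 transcripts. Without a filter on dim probes 131 transcripts met the limits, and with a limit of 4 on the means 33 did. Leaving out 1 array gave 70 to 91 transcripts and medians of -3.76 to -3.85; 68 of the 76 remained without wild-type replicate 1.

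The 1288 limma calls over all FlyBase transcripts became 412 after normexp and 2930 at an adjusted p under 0.05, and 650 to 1161 without 1 array, the 650 without wild-type replicate 1; each of these fits takes its spread from the genotype with 2 arrays and assumes that the lone array varies alike. With a replicate block there were 2131 calls; the labels do not say that equal numbers share a batch, and the deviations of equally numbered samples correlated at 0.278. The cause of the change under normexp was not tested. Leaving out 1 array gave -8.42 to 0.15 for FBtr0114543 and -7.95 to 0.19 for FBtr0071228, both positive without wild-type replicate 1, which held their bright spot. Without flagged spots FBtr0077569 was at -0.81 and FBtr0071228 at -0.90, and FBtr0114543 had no value. Leaving out 1 array gave -3.31 to 0.34 for FBtr0070504, with 0.34 without wild-type replicate 1 and 0.0025 without replicate 2, since its other probe was then the brightest. Of 427 recomputed differences of 27 named transcripts, 354 moved by less than the replicate spread, 69 by more, and these 4 changed sign. The 354 include values that could not move, such as those under another background filter, so the count is no measure of stability. Precision is limited by 2 arrays a genotype and, at least for the 5 transcripts within 1 of the dimmest measurable level, by signal over background.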

Other observations

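The same limits were met by 36 of 6624 measured targets with accessions of other kinds (0.543%), which may share genes with the 76 transcripts. Of these, 5 could be named. CG9757 had 2.40 and 2.27 in grhIM and 6.76 and 6.52 in wild-type, a difference of -4.31. CG33178 had 2.02 and 1.89 in grhIM and 5.43 and 5.11 in wild-type (-3.31), so both stayed above the array median in the mutants, unlike Cpr60D (-7.06). TTLL1A, named for tubulin tyrosine ligase-like enzymes, had -1.10 and -0.80 in grhIM and 3.08 and 2.68 in wild-type (-3.83). Non1, a gene for a nucleolar GTP-binding protein, had -2.35 and -2.43 in grhIM and 1.21 and 0.79 in wild-type (-3.39). The target TC215676 was the widest in the mutants, with -0.64 and -3.48 in grhIM and 2.57 and 2.05 in wild-type.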
